A study of Mus musculus with 21 samples.

Results

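The genes described here are 10 targets of the transcription factor p53 that act in cell cycle arrest, growth control and DNA repair: Cdkn1a, Plk2, Btg2, Gadd45a, Fbxw7, Polk, Rrm2b, Xpc, Phlda3 and Ercc5. They were chosen by gene symbol, and all 10 were found once in each of the 3 deposited tables, which together list 13253 transcript entries. The tables come from 3 lines of E14 mouse embryonic stem cells, pluripotent cells that were first grown out of early mouse embryos. The genotypes are RACK1-AID/RPS26-Tir1, RPLP0-AID/RPS26-Tir1 and RPLP1-AID/RPS26-Tir1. In each line a ribosome-associated protein carries a degron (AID), and the plant receptor Tir1, joined in the label to the small-subunit protein RPS26, directs its degradation when the auxin IAA is added. Cells of each line received IAA or the solvent DMSO for 8 h, so the DMSO controls carry the same tagged alleles. Each line had 3 mRNA samples per treatment, made from polyadenylated RNA, and 1 ribosome footprint sample that pools the replicates of both treatments. Ribosome footprints are mRNA fragments protected by ribosomes, so their number per gene reflects both the amount of an mRNA and the ribosomes on it. Untagged cells are not among the samples, whether a line is a single clone is not stated, and nothing says that replicates were separate cultures.

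p53 is a transcription factor that is held low by the ubiquitin ligase Mdm2 and accumulates after DNA damage, and also when ribosome assembly fails and free ribosomal proteins bind Mdm2. It then switches on genes that stop the cell cycle, repair DNA, restrain growth or start cell death, and it induces Mdm2 itself. Mouse embryonic stem cells express p53 and divide with a short G1 phase. RACK1 is a scaffold protein bound to the small ribosomal subunit, while RPLP0 and RPLP1 form part of the large subunit's stalk, which recruits translation factors.

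The tables hold the authors' log2 fold changes and false discovery rates (FDR, an adjusted p-value) for mRNA and for footprints, 1 value per gene and line, so no value per sample, no spread over replicates and no read depth is known here. A log2 change of 1 is a doubling after IAA. A gene was called changed where the authors' FDR was below 0.05. Standard errors (SE) and 95% intervals were worked out from each fold change and its FDR. Their medians over all genes were 0.17 for mRNA and 0.10 for footprints in the RACK1 line, 0.10 and 0.11 in the RPLP0 line, and 0.12 and 0.09 in the RPLP1 line. All 10 embryonic stem cell markers looked for, Pou5f1, Sox2 and Nanog among them, were listed in every table. Of 6 fibroblast markers 3 were listed and Col3a1, Dcn and Lum were not, and of 5 trophectoderm markers 3 were listed and Cdx2 and Elf5 were not. Of 4 primitive endoderm markers all 4 were listed in the RACK1 table, 3 in RPLP1 (without Sox17) and 2 in RPLP0 (without Gata4 and Sox17); the part of such cells in the differences between lines was not tested. In bulk samples a change in the share of cells that express a gene and a change in its RNA per cell cannot be told apart.

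After RPLP0 removal 7 of the 10 mRNAs rose and none fell, while 5.05% of all genes in that table rose and 4.9% fell. In footprints 5 of 10 rose and none fell, against 1.42% of all genes that rose and 1.04% that fell. After RPLP1 removal 4 mRNAs rose and none fell, against 5.64% and 8.59% of all genes, and 5 rose and none fell in footprints, against 3.54% and 4.85%. After RACK1 removal 1 mRNA, that of Phlda3, rose and none fell, against 0.17% and 0.31% of all genes. No member passed in RACK1 footprints, where 0.0232% of all genes rose and 0.00775% fell. The median log2 change over the members was 0.46 for mRNA and 0.39 for footprints in RPLP0, 0.30 and 0.26 in RPLP1, and 0.14 and 0.12 in RACK1, while the median over all genes of each table lay between -0.01 and 0.00. Over the members measured more precisely than the median gene of the table, the median was -0.052 in RPLP0 mRNA, where Gadd45a is the only such member, 0.21 in RPLP0 footprints (3 members) and 0.039 in RPLP1 footprints (4 members). The medians by role were not tested. In RPLP0 the 6 arrest and growth genes (Cdkn1a, Plk2, Btg2, Gadd45a, Phlda3 and Fbxw7) had medians of 0.72 for mRNA and 0.81 for footprints, and the 4 repair genes (Polk, Rrm2b, Xpc and Ercc5) had 0.07 and 0.01. In RPLP1 the arrest and growth genes had 0.33 and 0.38 and the repair genes 0.22 and 0.11. In RACK1 the mRNA medians of both roles were 0.14, and the footprint medians were 0.16 and 0.02.

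**Figure D1:**
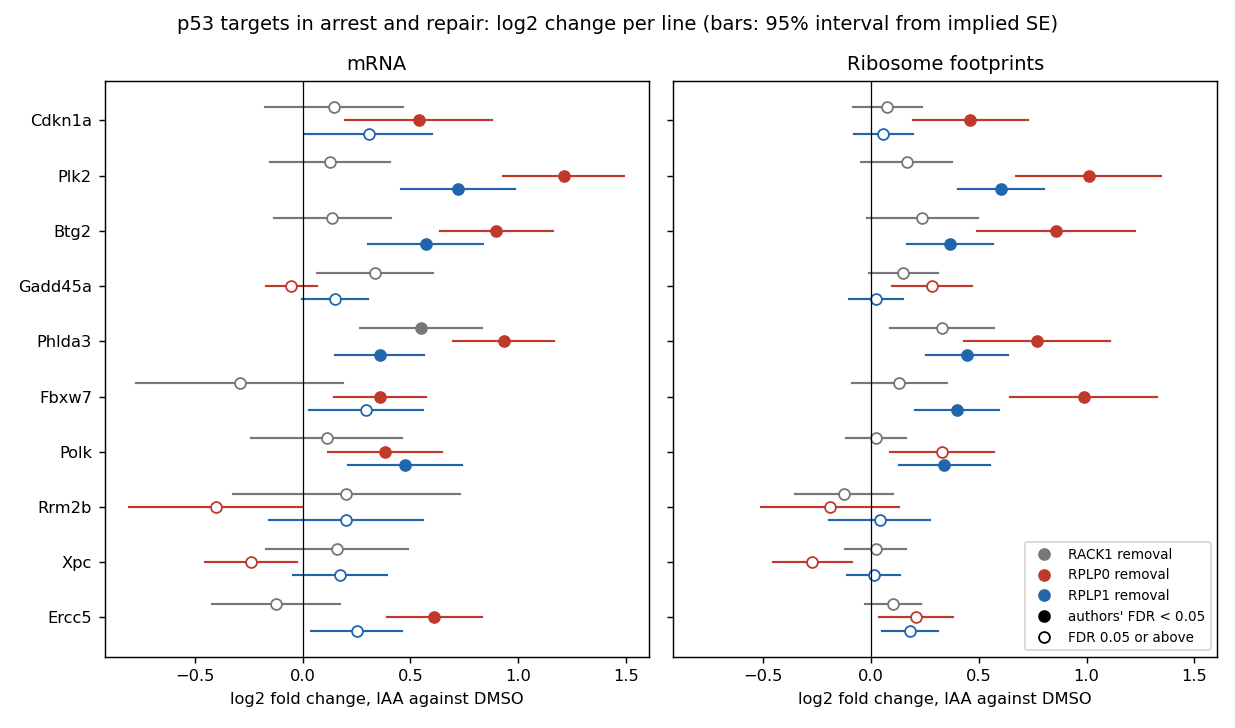
Log2 fold change after IAA against DMSO (x axis) of each member (rows) in mRNA (left) and ribosome footprints (right), for the 3 lines; filled points have an authors' FDR below 0.05 and bars are 95% intervals from the implied SE. Plk2, Btg2 and Phlda3 are filled in both stalk lines and both assays, with Plk2 mRNA at 1.21 in RPLP0, while Gadd45a, Rrm2b and Xpc have no filled point.

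Plk2, a serum-inducible polo-like kinase that acts in centriole duplication and checkpoint control, had the largest values of the group in both stalk lines. The authors' deposited table gave Plk2 mRNA a log2 change of 1.21 after RPLP0 removal (FDR 1.85e-13, 95% interval 0.93 to 1.49), which is 2.32-fold. After RPLP1 removal the Plk2 mRNA value in the authors' deposited table was 0.72 (FDR 4.64e-05), or 1.65-fold, and after RACK1 removal 0.13 (FDR 0.808). Its mRNA thus rose in both stalk lines and did not pass in RACK1. Plk2 footprints changed by 1.01 in RPLP0 (FDR 4.26e-05), 0.60 in RPLP1 (FDR 2.85e-05) and 0.16 in RACK1 (FDR 0.703), per the authors' deposited table. Ranked by fold change, Plk2 was number 65 of 12353 genes in RPLP0 mRNA and number 42 in RPLP0 footprints, and number 145 and 104 of 12274 in RPLP1.

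Btg2, an antiproliferative protein that recruits the CCR4-NOT deadenylase to mRNAs, rose in the same 4 measurements as Plk2. In the authors' deposited table Btg2 mRNA changed by 0.90 in RPLP0 (FDR 1.15e-08), 0.57 in RPLP1 (FDR 0.00131) and 0.14 in RACK1 (FDR 0.778). Btg2 footprints had 0.86 (FDR 0.00316), 0.37 (FDR 0.0151) and 0.24 (FDR 0.637) in the same order, per the authors' deposited table. The RPLP0 mRNA increase was 1.86-fold and that of footprints 1.81-fold, so both assays gave nearly the same size.

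Phlda3, a small pleckstrin-homology protein that competes with Akt for membrane lipids and so restrains Akt, was the member called most often, in 5 of 6 measurements. The authors' deposited table gave Phlda3 mRNA changes of 0.93 in RPLP0 (FDR 1.11e-11), 0.36 in RPLP1 (FDR 0.0114) and 0.55 in RACK1 (FDR 0.0393). It is the only member called in RACK1, where it was number 570 of 12905 genes by fold change. Phlda3 footprints rose by 0.77 in RPLP0 (FDR 0.00479) and 0.44 in RPLP1 (FDR 0.00320), and had 0.33 in RACK1 (FDR 0.460), per the authors' deposited table. The RACK1 mRNA value has a 95% interval of 0.27 to 0.83 and did not pass at an FDR of 0.01.

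Cdkn1a encodes p21, the inhibitor of cyclin-dependent kinases through which p53 halts cells before S phase. Its mRNA rose after RPLP0 removal by 0.54 (FDR 0.0260), or 1.45-fold, and its footprints by 0.46 (FDR 0.0392), in the authors' deposited table. After RPLP1 removal Cdkn1a mRNA had 0.31 (FDR 0.154) and its footprints 0.06 (FDR 0.652), and after RACK1 removal 0.14 (FDR 0.810) and 0.07 (FDR 0.838), per the authors' deposited table. By the FDR, Cdkn1a was thus called in RPLP0 alone, where its 95% interval in mRNA, 0.20 to 0.88, lay below that of Plk2 (0.93 to 1.49). Both of its calls are lost at an FDR of 0.01. The authors' class code, however, counts Cdkn1a as changed transcriptionally in RPLP1.

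Promoters were read for the members because several of them moved together and p53 binds a known sequence. RefSeq windows of 300 bases on GRCm38.p6, from 250 bases before to 50 after a transcription start, were found for 8 of the 10 members, 12 windows in all; Rrm2b and Xpc were not matched. They were searched for the 10-base p53 consensus, which reads the same on both strands, and for a pair of such elements at most 13 bases apart with at most 1 mismatch in all, the central C and G fixed. Of all 32851 windows, 8.36% held an exact 10-base element and 0.627% held a pair. Among the members 3 windows held a 10-base element and 1, upstream of a Cdkn1a start, held a pair. Cdkn1a and Polk each have a further window, chr17:29093519-29093818 and chr13:96542530-96542829, that holds no match and is not shown. The windows below show the matches in capitals, written 5′ to 3′ on the strand of the gene. The Plk2 and Phlda3 windows hold none and are shown as examples from genes that rose in both stalk lines. The window of Btg2, which also rose in both, holds none either and is not shown. An element cut off by the edge of a window was not counted, and the last bases of the Phlda3 window fit the start of one. Which start the counted transcripts use was not examined.
Cdkn1a, chr17:29090729-29091028, plus strand: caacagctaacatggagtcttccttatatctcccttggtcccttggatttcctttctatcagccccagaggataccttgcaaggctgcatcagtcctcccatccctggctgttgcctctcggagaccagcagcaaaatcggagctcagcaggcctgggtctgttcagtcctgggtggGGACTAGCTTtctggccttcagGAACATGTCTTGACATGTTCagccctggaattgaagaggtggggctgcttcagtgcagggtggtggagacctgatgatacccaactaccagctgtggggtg
Gadd45a, chr6:67037358-67037657, minus strand: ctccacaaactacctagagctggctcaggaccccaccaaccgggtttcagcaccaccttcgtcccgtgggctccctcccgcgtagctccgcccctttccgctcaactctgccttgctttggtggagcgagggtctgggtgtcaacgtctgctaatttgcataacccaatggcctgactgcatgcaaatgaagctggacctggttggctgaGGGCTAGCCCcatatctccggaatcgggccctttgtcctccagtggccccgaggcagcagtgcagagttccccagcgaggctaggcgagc
Polk, chr13:96519138-96519437, minus strand: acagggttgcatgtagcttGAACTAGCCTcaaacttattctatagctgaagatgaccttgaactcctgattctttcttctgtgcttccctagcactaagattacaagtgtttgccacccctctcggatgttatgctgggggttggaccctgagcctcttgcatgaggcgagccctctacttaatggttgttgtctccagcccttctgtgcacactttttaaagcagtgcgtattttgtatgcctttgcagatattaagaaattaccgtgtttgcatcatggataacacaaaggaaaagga
Plk2, chr13:110394794-110395093, plus strand: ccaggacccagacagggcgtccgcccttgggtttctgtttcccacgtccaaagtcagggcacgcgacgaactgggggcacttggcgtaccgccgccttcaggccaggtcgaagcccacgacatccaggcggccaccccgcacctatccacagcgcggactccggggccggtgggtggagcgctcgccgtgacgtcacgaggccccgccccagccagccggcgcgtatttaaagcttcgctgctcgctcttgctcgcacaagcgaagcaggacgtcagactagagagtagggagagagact
Phlda3, chr1:135765835-135766134, plus strand: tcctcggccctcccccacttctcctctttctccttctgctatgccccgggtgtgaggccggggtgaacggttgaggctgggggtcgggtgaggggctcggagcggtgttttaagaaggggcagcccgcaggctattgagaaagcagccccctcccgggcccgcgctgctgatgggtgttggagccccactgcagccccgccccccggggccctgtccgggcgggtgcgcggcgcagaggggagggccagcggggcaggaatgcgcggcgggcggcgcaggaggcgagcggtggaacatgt
In the Cdkn1a window shown, the exact elements begin at -73 and -51 relative to the start in that window. The capitals from -51 are 20 bases made of an exact element followed at once by an element with 1 mismatch. The Gadd45a element begins at -40 and the Polk element at -231. Of the 3 genes with an element, Cdkn1a and Polk were called in at least 1 measurement and Gadd45a was not. The members whose windows hold no element, Plk2, Btg2, Phlda3, Fbxw7 and Ercc5, were each called in at least 1 measurement too. Having an element thus did not go with being called. A match describes the letters of a window and is not evidence of binding.

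Fbxw7, the substrate-binding subunit of an SCF ubiquitin ligase that marks cyclin E, Myc and Notch for degradation, rose in both assays after RPLP0 removal, with a higher value in footprints than in mRNA; the difference between the assays did not pass its test after adjustment. The authors' deposited table gave Fbxw7 footprints 0.99 (FDR 8.43e-05), or 1.98-fold, and its mRNA 0.36 (FDR 0.0172), or 1.28-fold. By fold change it was number 48 among footprints and number 934 among mRNAs of that table. After RPLP1 removal Fbxw7 footprints rose by 0.40 (FDR 0.00903) while its mRNA had 0.29 (FDR 0.124), per the authors' deposited table. The authors' class code counts Fbxw7 as changed in both assays in RPLP1. In RACK1 the authors' deposited table listed -0.29 for Fbxw7 mRNA (FDR 0.712) and 0.13 for footprints (FDR 0.780), neither past the threshold.

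Gadd45a, a damage-inducible protein that binds p21 and PCNA and activates stress kinases, had no FDR below 0.05 in any of the 6 measurements. The authors' class codes nevertheless count Gadd45a as changed translationally in RPLP0 and transcriptionally in RPLP1. Its mRNA had -0.05 in RPLP0 (FDR 0.657), 0.15 in RPLP1 (FDR 0.186) and 0.34 in RACK1 (FDR 0.302), per the authors' deposited table. The RPLP0 value has a 95% interval of -0.17 to 0.07, and 62.4% of all genes in that table had a higher mRNA change, so an increase of the size of the Cdkn1a mRNA is outside its interval. Gadd45a footprints had 0.28 in RPLP0 (FDR 0.0676), 0.02 in RPLP1 (FDR 0.863) and 0.15 in RACK1 (FDR 0.632), in the authors' deposited table.

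Of the repair genes, Polk was called in both stalk lines. Polk encodes DNA polymerase kappa, which copies past damaged bases. Its mRNA rose by 0.38 in RPLP0 (FDR 0.0471) and by 0.47 in RPLP1 (FDR 0.00802), and had 0.11 in RACK1 (FDR 0.877), per the authors' deposited table. Polk footprints rose by 0.34 in RPLP1 (FDR 0.0322) and had 0.33 in RPLP0 (FDR 0.105) and 0.02 in RACK1 (FDR 0.949), in the authors' deposited table. The 2 stalk lines therefore gave footprint values of nearly the same size on opposite sides of the threshold.

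Ercc5 encodes XPG, the endonuclease that cuts on the 3′ side of a lesion in nucleotide excision repair. By the FDR it was called in RPLP0 mRNA alone, at 0.61 (FDR 8.48e-06), or 1.53-fold, in the authors' deposited table. The authors' class code also counts Ercc5 as changed in both assays in RPLP1, where neither FDR is below 0.05. Its RPLP0 footprints had 0.21 (FDR 0.154), or 1.16-fold, per the authors' deposited table. The remaining Ercc5 values in the authors' deposited table were 0.25 for mRNA (FDR 0.0978) and 0.18 for footprints (FDR 0.0653) in RPLP1, and -0.12 (FDR 0.827) and 0.10 (FDR 0.710) in RACK1.

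Xpc and Rrm2b were the members with the lowest values in RPLP0. Xpc, the damage sensor that starts global nucleotide excision repair, had -0.24 for mRNA (FDR 0.145) and -0.27 for footprints (FDR 0.0728) in the authors' deposited table, and the authors' class code counts it as changed in both assays although neither FDR is below 0.05. The files do not state the rule behind the codes. In RPLP1 Xpc had 0.17 (FDR 0.301) and 0.01 (FDR 0.928), and in RACK1 0.16 (FDR 0.790) and 0.02 (FDR 0.955), per the authors' deposited table. Rrm2b, the p53-inducible subunit of ribonucleotide reductase that supplies nucleotides for repair, had -0.40 for mRNA (FDR 0.216) and -0.19 for footprints (FDR 0.507) in RPLP0, per the authors' deposited table. Its values in the authors' deposited table were 0.20 (FDR 0.488) and 0.04 (FDR 0.872) in RPLP1, and 0.20 (FDR 0.843) and -0.13 (FDR 0.804) in RACK1. Rrm2b was measured with little precision, the SE of its mRNA change being 0.21 in RPLP0, 0.18 in RPLP1 and 0.27 in RACK1, and its RPLP0 interval for mRNA ran from -0.80 to just above 0.

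By its title the series asks about regulation after transcription. Translation efficiency was read as the log2 change of footprints minus that of mRNA. All 10 members in RPLP1, and all but Gadd45a in RPLP0, had the same sign in both assays. No member passed the approximate test of this difference in any line after Benjamini-Hochberg adjustment over all genes, where 1 gene of 12353 passed in RPLP0 (0% of genes higher and 0.0081% lower). In RPLP1 4 of 12274 genes passed (0.0326% higher and 0% lower) and in RACK1 15 of 12905 (0.093% higher and 0.0232% lower). Before adjustment, 3 members had p below 0.05 in RPLP0, as did 816 of all 12353 genes, and no member did in RPLP1 or RACK1, where 905 and 1025 genes did. These were Fbxw7, with a difference of 0.63 (SE 0.21), Gadd45a, with 0.33 (SE 0.11), and Ercc5, with -0.40 (SE 0.14). The Fbxw7 difference corresponds to 1.55-fold more footprints per mRNA, with a 95% interval of 0.22 to 1.03 on the log2 scale, and that of Ercc5 to 0.757-fold. The test treats the errors of the assays as independent, and with an error correlation of 0.5 all 3 passed, as did 245 genes of the table.

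**Figure D2:**
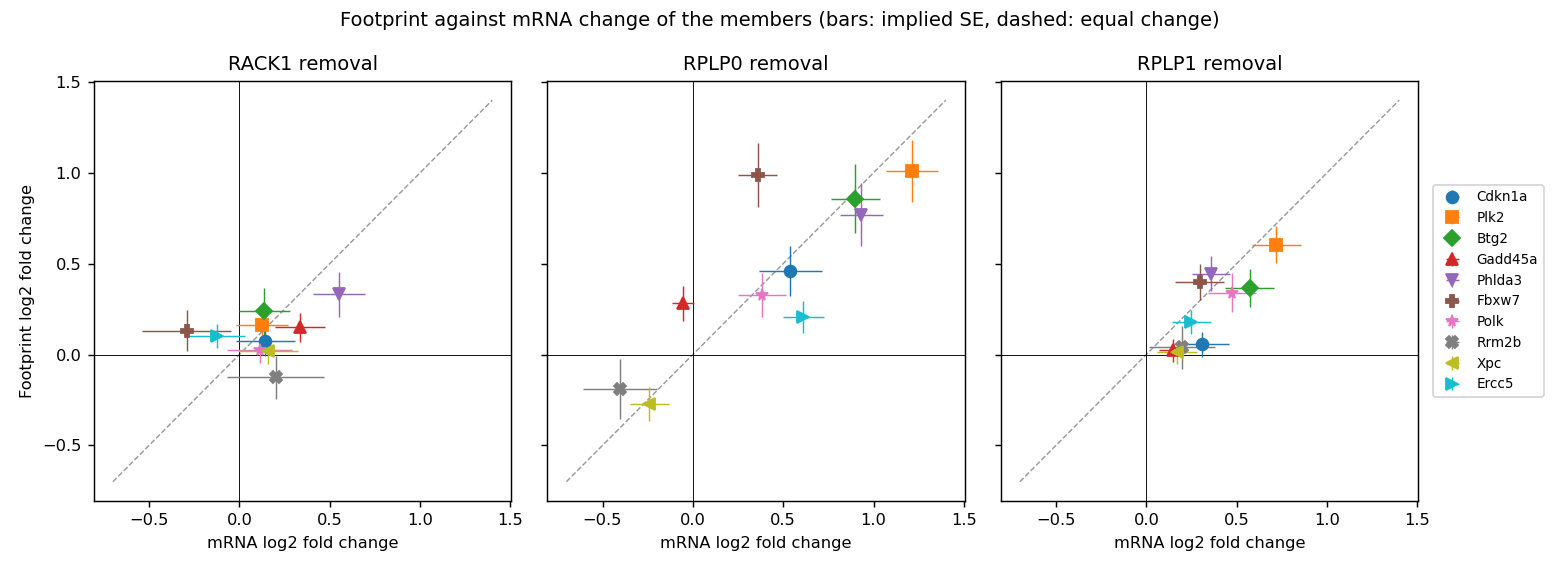
Footprint log2 fold change (y axis) against mRNA log2 fold change (x axis) of the 10 members in each line, with implied SE as bars and equal change as a dashed line. In RPLP0 Fbxw7 (0.36, 0.99) and Gadd45a (-0.05, 0.28) lie above the line and Ercc5 (0.61, 0.21) below it, while Plk2, Btg2, Phlda3 and Cdkn1a lie along it.

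Across the 10 members the Spearman correlation of footprint with mRNA change was 0.709 in RPLP0, 0.830 in RPLP1 and 0.103 in RACK1; the points of a line share their libraries, so these values are descriptions. For the 4 members along the dashed line in RPLP0 the differences were -0.20 for Plk2 (95% interval -0.64 to 0.23), -0.04 for Btg2 (-0.49 to 0.41), -0.16 for Phlda3 (-0.58 to 0.25) and -0.08 for Cdkn1a (-0.51 to 0.35). These intervals include changes as large as -0.64, so equal change was not shown. In RPLP1 the largest difference was that of Cdkn1a, -0.25 (SE 0.17), and in RACK1 that of Fbxw7, 0.42 (SE 0.27), neither past the test.

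**Figure D3:**
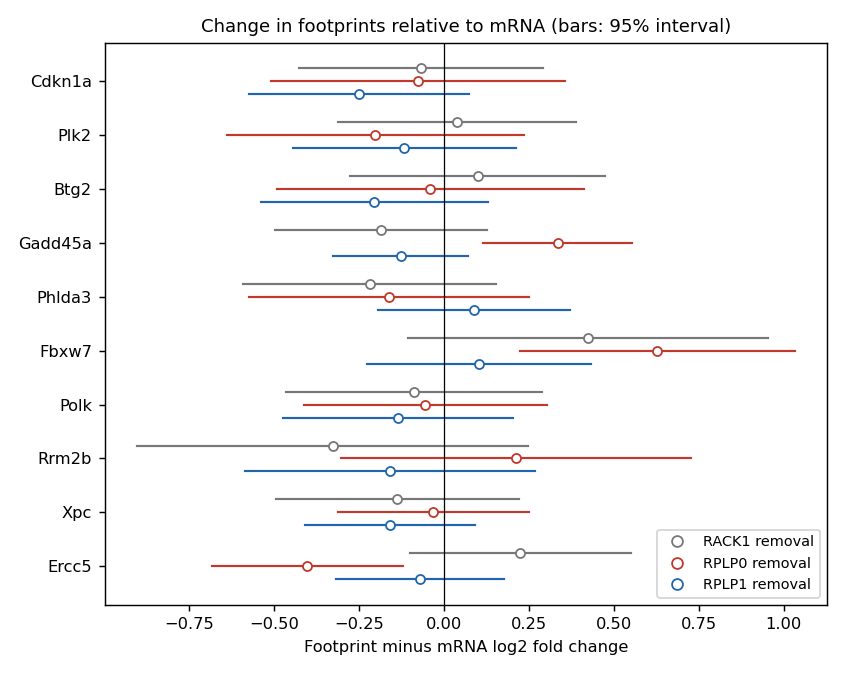
Footprint minus mRNA log2 fold change (x axis) of each member in the 3 lines, with 95% intervals as bars; all points are open because none passed after adjustment. The RPLP0 intervals of Fbxw7 (0.22 to 1.03) and Gadd45a (0.11 to 0.55) lie above 0 and that of Ercc5 (-0.68 to -0.12) below it.

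Responses of the lines, which have separate DMSO controls, were then compared gene by gene with the same kind of approximate test, 6 comparisons for each member, adjusted over all genes shared by the lines of a pair. RPLP0 exceeded RACK1 in mRNA for Plk2 by 1.09 (95% interval 0.69 to 1.48), for Btg2 by 0.76 (0.38 to 1.14) and for Ercc5 by 0.73 (0.36 to 1.11), each past the adjusted threshold of 0.05. These are 3 of 10 members, against 1.87% of all genes that were higher in RPLP0 and 1.43% that were lower. In footprints RPLP0 exceeded RACK1 for Fbxw7 by 0.86 (0.45 to 1.26) and for Plk2 by 0.84 (0.45 to 1.24), 2 of 10 members, against 0.49% of all genes that were higher and 0.149% that were lower. RPLP1 exceeded RACK1 in mRNA for Plk2 alone, by 0.59 (0.21 to 0.98), 1 of 10 members, against 3% of all genes that were higher and 4.94% that were lower. No member passed between RPLP1 and RACK1 in footprints, where 0.0824% of all genes were higher in RPLP1 and 0.0247% lower.

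Between the stalk lines, the RPLP0 value was the higher for 6 of the 10 members in mRNA and for 7 in footprints. Gadd45a, Rrm2b, Xpc and Polk mRNA had the lower value in RPLP0. Of all these differences 1 passed. Phlda3 mRNA differed by 0.58 (95% interval 0.26 to 0.89), 1 of 10 members, against 7.3% of all genes that were higher in RPLP0 and 4.92% that were lower. Plk2 mRNA had a difference of 0.49 (0.11 to 0.88) and Btg2 mRNA 0.33 (-0.05 to 0.70), neither past the test. In footprints no member passed between the stalk lines, while 3.12% of all genes were higher in RPLP0 and 1.62% lower. The smallest adjusted p belonged to Fbxw7, with a difference of 0.59 (0.19 to 0.98), and Cdkn1a, with 0.41 (0.11 to 0.70). Xpc mRNA had a lower value in RPLP0 than in RPLP1, with a difference of -0.41 (-0.72 to -0.11), which did not pass after adjustment. Polk, which rose in both stalk lines in mRNA, had a difference between them of -0.09 for mRNA (95% interval -0.46 to 0.28) and -0.01 for footprints (-0.33 to 0.31).

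**Figure D4:**
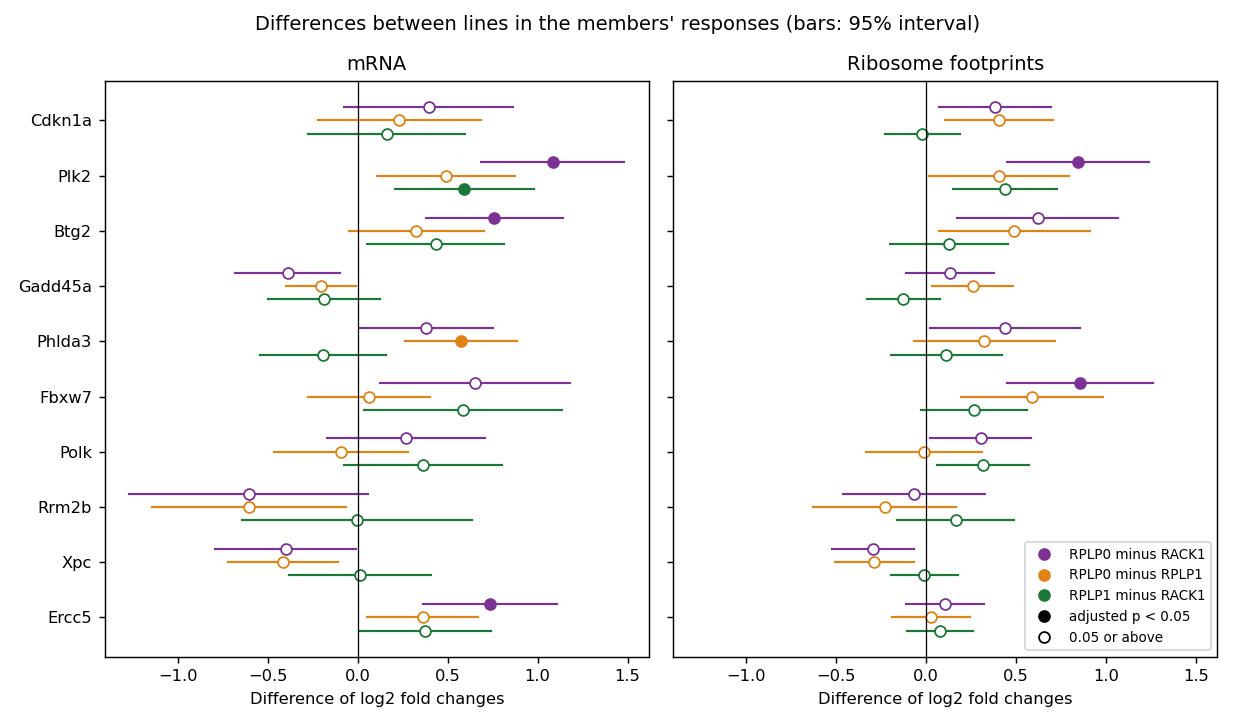
Difference of log2 fold changes between lines (x axis) for each member in mRNA (left) and footprints (right), with 95% intervals; filled points have an adjusted p below 0.05. The filled points are Plk2, Btg2 and Ercc5 for RPLP0 minus RACK1, Phlda3 for RPLP0 minus RPLP1 and Plk2 for RPLP1 minus RACK1 in mRNA, and Plk2 and Fbxw7 for RPLP0 minus RACK1 in footprints.

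The rest of the p53 programme was read from a list of 28 other targets. In RPLP0 17 of them rose and 1, Sesn1, fell in mRNA (median 0.42), against 5.05% and 4.9% of all genes. In RPLP0 footprints 14 rose and 2 fell (median 0.51), against 1.42% and 1.04%. In RPLP1 7 of 27 rose and none fell in mRNA (median 0.15), against 5.64% and 8.59%. In RPLP1 footprints 6 rose and 2 fell (median 0.09), against 3.54% and 4.85%. In RACK1 1 of 28, Ddit4, rose in mRNA (median 0.02), where 0.17% of all genes rose, and none passed in footprints. Mdm2 mRNA rose by 0.76 in RPLP0 (FDR 1.55e-12) and 0.48 in RPLP1 (FDR 6.41e-05) and had 0.02 in RACK1 (FDR 0.954), per the authors' deposited table. The p53 mRNA, Trp53, had 0.01 in RPLP0 (FDR 0.957), -0.12 in RPLP1 (FDR 0.152) and 0.20 in RACK1 (FDR 0.445) in the authors' deposited table, and its footprints had 0.12 (FDR 0.341), 0.06 (FDR 0.396) and -0.02 (FDR 0.964). Trp53inp1 had 0.86 (FDR 1.39e-13) and Eda2r 0.85 (FDR 2.08e-11) in RPLP0 mRNA in the authors' deposited table, close to the values of Btg2 and Phlda3, and the highest of the 28 other targets had 1.10, against 1.21 for Plk2. In RPLP0 footprints the highest was Fas, a death receptor, at 1.46 (FDR 0.0392, SE 0.43) in the authors' deposited table, above the 1.01 of Plk2. Fas was measured with little precision. Its RPLP0 mRNA had 0.32 (FDR 0.829, SE 0.68) in the authors' deposited table, and Fas was not listed for RPLP1.

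Genes related to the members by family or pathway were counted in the same way. Of 12 measured paralogues (of Plk2, Btg2, Gadd45a, Phlda3 and the reductase) 1 rose in RPLP0 mRNA, Phlda1, at 0.41 (FDR 0.00542) in the authors' deposited table. This count is near the 5.05% of all genes that rose. Phlda1 footprints rose by 0.74 in RPLP0 (FDR 0.0118) and 0.67 in RPLP1 (FDR 0.00994), per the authors' deposited table. It was the 1 paralogue called in footprints, where 1.42% and 3.54% of all genes rose. In RPLP1 mRNA 1 paralogue, Phlda2, fell by 0.44 (FDR 0.00259, authors' deposited table), near the 8.59% of all genes that fell. Rrm1, the large subunit of ribonucleotide reductase with which Rrm2b pairs, and Rrm2, the alternative small subunit, were not called in any measurement, Rrm1 mRNA having -0.10 and Rrm2 mRNA -0.10 in RPLP0 in the authors' deposited table. Among 5 other inhibitors of cyclin-dependent kinases 1, Cdkn1c, fell in RPLP0 mRNA, by 0.51 (FDR 0.0132), and 1 of 4, Cdkn1b, rose in RPLP1 mRNA, by 0.28 (FDR 0.0467), per the authors' deposited table. Among all genes 4.9% fell in RPLP0 mRNA and 5.64% rose in RPLP1 mRNA. A single call in so short a list does not describe the family.

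Of 23 other nucleotide excision repair genes 1 rose and 1 fell in RPLP0 mRNA, Ercc4 (0.32, FDR 0.0101) and Cetn2 (-0.31, FDR 0.0453) in the authors' deposited table, near the shares of all genes (5.05% higher and 4.9% lower). None passed in RPLP0 footprints, and the medians were 0.03 and 0.04. In RPLP1 2 rose in mRNA (Lig3 and Gtf2h1) and 1, Ddb2, in footprints, against 5.64% and 3.54% of all genes. No repair gene of this list passed in RACK1. Of 8 other genes of translesion synthesis, the pathway of Polk, 1 was called in each of 3 measurements, and it was Rev1 each time. Among all genes 5.05% rose in RPLP0 mRNA, 5.64% in RPLP1 mRNA and 3.54% in RPLP1 footprints. Rev1, a scaffold for the translesion polymerases, rose in mRNA by 0.35 in RPLP0 (FDR 0.00022) and 0.28 in RPLP1 (FDR 0.0179), and in footprints by 0.33 in RPLP1 (FDR 0.00614), in the authors' deposited table.

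**Figure D5:**
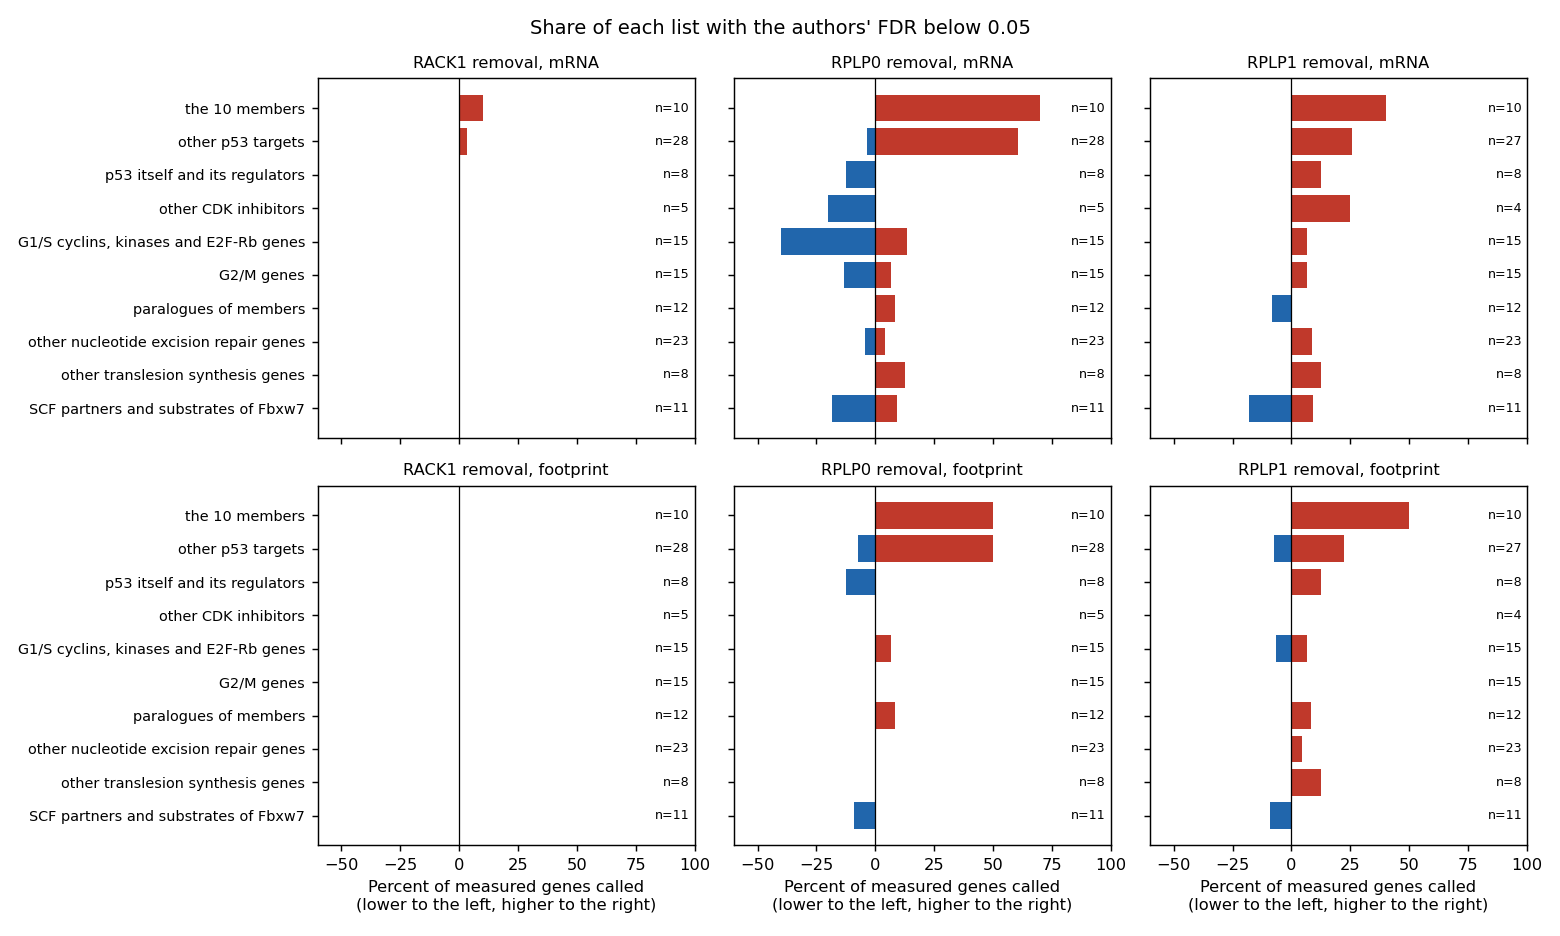
Percent of the measured genes of each list (rows) with an authors' FDR below 0.05, higher to the right and lower to the left, for mRNA (top) and footprints (bottom) in each line, with the number of measured genes at the right. In RPLP0 mRNA the bars for the members (7 of 10) and for the other p53 targets (17 of 28) extend furthest to the right, and that for G1/S genes (6 of 15) furthest to the left. Among all genes 5.05% rose and 4.9% fell there.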

How the data were processed

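Polyadenylated RNA (18 samples) and pooled ribosome footprints (3 samples) were measured in 3 lines; the values used come from 3 deposited tables, each comparing IAA with DMSO in 1 line. Per the file headers, each gene has the authors' log2 fold changes (mRNA, footprints), their FDRs, which are adjusted p-values, and a class code. The class code, whose values 0 to 3 run from no change to change in both assays, has its legend in the deposited RACK1 and RPLP1 tables, and RPLP0 codes were read with it. Direction was read from the title lines as after removal against before. The aligner, test and genome build: not given in the sources used here, nor is how footprint statistics came from pooled samples, so the spread behind the footprint FDRs is unknown. Read depth per sample is unknown, and no interval for counting error is given.

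The Benjamini-Hochberg adjustment was inverted to recover a p for each gene; genes with equal FDR took the middle of the range their p can have. The implied SE is the fold change divided by the normal quantile, and 95% intervals are 1.96 SE either way. Footprint minus mRNA, and line minus line, were tested against the combined SE with a normal reference, adjusted over all genes of a table or shared by a pair of tables, at 0.05. These tests are approximate, and their p-values are not printed because no arm has more than 3 samples. They were run in Python 3.11.15 with scipy 1.17.1. The procedure was also run on simulated data with normal errors and the same adjustment. That run assumed what the inversion assumes, so it cannot show whether the authors' FDRs arose in this way. Without values per sample, no count model could be fitted.

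Members and gene lists were chosen with earlier results of these data known, so no test over a list was made. All 10 members are named, and from each list up to 4 called genes with the smallest FDR per line and assay, Trp53 and Mdm2 always; Sesn1, Mdm4, Fas, Rrm1, Rrm2 and, in mRNA, Rbl2 fall outside that rule and were named after their values were seen. Promoters came from RefSeq on GRCm38.p6.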

Additional observations from a re-analysis of the deposited data

Results flagged for a closer look

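Of 60 tests of members between lines 7 passed, in 5 members, by the test of the difference itself. In mRNA, RPLP0 minus RACK1 was 1.09 for Plk2, 0.76 for Btg2 and 0.73 for Ercc5. There 1.87% of all genes were higher and 1.43% lower. RPLP0 minus RPLP1 was 0.58 for Phlda3, where 7.3% of all genes were higher and 4.92% lower. RPLP1 minus RACK1 was 0.59 for Plk2, where 3% were higher and 4.94% lower. Both counts, 1 of 10 members each, lie near these shares. In footprints, RPLP0 minus RACK1 was 0.84 for Plk2 and 0.86 for Fbxw7, where 0.49% of all genes were higher and 0.149% lower. Each difference is on the log2 scale and rests on the approximate SE; the RACK1 line has the largest median SE for mRNA, 0.17, against 0.10 in RPLP0, and its part in these differences was not tested.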

How the results depend on the processing

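Log2 changes centred on the median of all genes, and the largest p of each run of equal FDR, moved no count of members by more than 1.5 times and no median by more than the median SE of the members. Centring turned 1 value that had not passed, Rrm2b mRNA in RPLP1 minus RACK1, from -0.00 to 0.0035. At an FDR of 0.01 the members called higher became 0 in RACK1 mRNA, 4 in RPLP0 mRNA and 3 in RPLP1 footprints, and at 0.1 1 member, Xpc, fell in RPLP0 footprints. By the authors' class codes 1 member fell in RPLP0 mRNA and 1 in RPLP0 footprints, and 8 rose in RPLP1 mRNA. With a log2 change of at least 0.5 required as well, 2 rose in RPLP1 mRNA and 1 in RPLP1 footprints. The shares of all genes under these other rules were not counted, so these member counts cannot be set against them. Among members measured more precisely than the median gene, the median was -0.052 in RPLP0 mRNA, which is 1 gene, Gadd45a, 0.21 in RPLP0 footprints (3 genes) and 0.039 in RPLP1 footprints (4 genes). For footprint minus mRNA in RPLP0, 3 members (Fbxw7, Gadd45a and Ercc5) and 245 of 12353 genes passed with an error correlation of 0.5. Quantiles of a t distribution (4 degrees of freedom per assay, 8 for the combined test) gave 3 members (Fbxw7, Ercc5 and Plk2) of 33 genes in RPLP0, and 2 (Btg2 and Plk2) of 333 in RPLP1. In mRNA for RPLP0 minus RPLP1, 5 members (Phlda3, Plk2, Btg2, Ercc5 and Xpc) passed with t quantiles, among 2110 of 11969 genes, and 3 (Phlda3, Plk2 and Xpc) at a threshold of 0.1, among 2082. In footprints RPLP0 minus RACK1 had 4 with t quantiles (Plk2, Fbxw7, Btg2 and Phlda3), among 346 of 12047 genes. RPLP0 minus RPLP1 footprints had 6 with t quantiles (Plk2, Fbxw7, Btg2, Phlda3, Cdkn1a and Xpc), among 1151 of 11969 genes, and 2 at 0.1 (Fbxw7 and Cdkn1a), among 1297. The t quantiles and the error correlation give smaller SE, and a threshold of 0.1 is looser by definition, so more passes follow from these settings. Which setting is nearer to the authors' test is not known. Why the medians of the more precisely measured members differ was not tested. Other normalization, count filters and leaving out replicates were not run. No paired analysis was possible because the tables hold no values per sample. How small a difference these data could show is limited by the unknown depth.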

Other observations

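Genes that act next to the members were also read from lists. Of 15 cyclins, kinases and E2F-Rb genes of the G1/S transition, 6 fell and 2 rose in RPLP0 mRNA, against 4.9% of all genes that fell and 5.05% that rose. The authors' deposited table held -0.51 for the G1 cyclin Ccnd1 (FDR 9.37e-08), -0.69 for Ccnd2 (FDR 1.82e-05) and -0.38 for Ccne1 (FDR 4.56e-06), a substrate of Fbxw7. The retinoblastoma gene Rb1, which holds E2F factors inactive, and its relative Rbl2 rose in mRNA, by 0.74 (FDR 7.82e-05) and 0.62 (FDR 0.00722), per the authors' deposited table. In footprints 1 of the 15, Rbl2, rose in RPLP0 (0.72, FDR 0.0442, in the authors' deposited table), and none fell. Among all genes 1.42% rose and 1.04% fell there. In RPLP1 1 of 15 rose in mRNA, E2f3, against 5.64% of all genes. In RPLP1 footprints 1 rose and 1 fell, Rb1 and Ccnd1, against 3.54% and 4.85%. None of the 15 passed in RACK1. Of 15 G2/M genes 2 fell (Top2a and Aurkb) and 1 rose (Mki67) in RPLP0 mRNA, against 4.9% and 5.05% of all genes. None of them passed in RPLP0 footprints.

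Of 11 measured SCF partners and substrates of Fbxw7, 2 fell and 1 rose in RPLP0 mRNA, Ccne1, Myc and Notch1 in that order, against 4.9% and 5.05% of all genes. Myc had -0.48 for mRNA (FDR 0.000137) and -0.31 for footprints (FDR 0.0492) in the authors' deposited table. Fbxw7 acts on proteins, and neither mRNA nor footprints measure protein degradation, so its action on these substrates was not tested. In RPLP1 2 fell (Srebf1 and Notch1) and 1 rose (Skp1a) in mRNA, against 8.59% and 5.64% of all genes. Among 8 measured genes of p53 itself and its regulators, the checkpoint kinase Chek2 was the 1 that fell in RPLP0, by 0.33 in mRNA (FDR 0.00608) and 0.42 in footprints (FDR 0.00895) in the authors' deposited table. In these assays 4.9% and 1.04% of all genes fell. Rpl5, a ribosomal protein that can bind Mdm2, was the 1 called in RPLP1, at 0.22 in mRNA (FDR 0.00615) and 0.15 in footprints (FDR 0.0231) in the authors' deposited table. There 5.64% and 3.54% of all genes rose. The footprints of Mdm4, the partner of Mdm2 in holding p53 back, fell by 0.50 in RPLP0 (FDR 0.00808) and 0.22 in RPLP1 (FDR 0.0234) in the authors' deposited table; Mdm4 mRNA had 0.11 (FDR 0.161) and 0.14 (FDR 0.144). The other footprint decreases among the 28 p53 targets were Sesn1 in RPLP0 and Fdxr in RPLP1.

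The 5 genes outside the group whose 6 log2 changes lay nearest to the medians of the members were Rchy1, Prkcb, Kif18b, Zfp128 and Apaf1, at Euclidean distances of 0.168, 0.171, 0.183, 0.195 and 0.209. The members themselves lay between 0.232 for Cdkn1a and 1.11 for Plk2. Because the 5 genes were picked as the nearest of all genes outside the group, their smaller distances say nothing about the members. Apaf1 is also among the 28 other p53 targets.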
